A study of Rattus norvegicus with 47 samples.

Results

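The 8 genes described here, Slc12a3, Wnk1, Wnk4, Klhl3, Trpm6, Trpm7, Cnnm2 and Pvalb, belong to salt transport in the distal convoluted tubule (DCT) of the kidney and to magnesium handling. They were chosen by symbol, and all 8 had a row in the table of 22525 genes. Kidney RNA from 47 rats was sequenced 12 months after a cylindrical metal pellet, 1 mm in diameter and 2 mm long, had been implanted. The pellets were of tungsten (W, n = 8), cobalt (Co, n = 8), aluminium (Al, n = 8), lead (Pb, n = 7) or depleted uranium (DU, n = 8), and tantalum (Ta, n = 8), an inert metal, was the reference, so the 5 comparisons with Ta share its 8 libraries. Every rat carried a pellet, so no group without an implant was compared. The strain, sex and age of the rats and the site of the pellet are not given in the sources used here. Each library comes from a separate animal by its label, and each metal has its own stretch of animal numbers, with 1 number in the Pb stretch not among the libraries analysed here, so whatever follows that numbering and the metal cannot be told apart.

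The DCT is the short stretch of nephron that follows the thick ascending limb. Its cells take up sodium chloride through the thiazide-sensitive cotransporter NCC, the product of Slc12a3, and NCC is switched on by a kinase cascade in which WNK kinases activate SPAK and OSR1. KLHL3, a substrate adaptor of a cullin ubiquitin ligase, marks WNK kinases for degradation, and human variants of WNK1, WNK4 or KLHL3 raise blood pressure and potassium. The same cells set the final magnesium content of urine, with TRPM6 as the entry channel on the luminal side and CNNM2 on the basolateral side.

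Total counts per library were 21604755 to 35775818, and the 13 mitochondrially encoded genes took 11.8% to 26.5% of them. Levels are given as CPM, counts scaled to a common library total with TMM factors. The groups also differed in the balance between ribosomal protein genes and genes of very large proteins, taken as mean log2 CPM over 30 tested ribosomal genes less that over 28 tested large-protein genes. It was 1.66 to 2.44 in W, 2.03 to 2.90 in Co, 2.03 to 3.26 in Al, 2.97 to 4.35 in Pb and 2.19 to 3.16 in DU, against 1.12 to 2.02 in Ta. W overlapped Ta, and Co, Al, Pb and DU lay above every Ta library. The library of DU replicate 6 stood apart from its group: 7 of the 7 tested genes lay below every Ta library, as also in Al replicate 8, its mitochondrial share of 11.8% was the lowest of all, and its mean log2 CPM was 3.79 for principal cell and 4.47 for intercalated cell markers, against at least 5.58 and 6.42 in Ta. Without it the log2 fold change of DU against Ta was 0.00011 for Slc12a3, -0.21 for Wnk1, 0.0096 for Klhl3, 0.033 for Wnk4, -0.31 for Trpm7, -0.15 for Trpm6 and -0.12 for Cnnm2, none of which passed the test. Umod, the most abundant protein of normal urine, made in the thick ascending limb, was counted in every library and ranged from 484 to 6469 CPM. Slc34a1, a proximal tubule marker, ranged from 24.8 to 4117 CPM. The lowest values of both were in DU, where the median of Slc34a1 was 2436 CPM.

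Slc12a3 was lowest in kidneys with Pb pellets. It had a lowest, median and highest level of 45.3, 211 and 630 CPM in Pb, against 553, 1018 and 1772 CPM in Ta. In 6 of 7 Pb libraries it lay below every Ta library, and only Pb replicate 7, at 630 CPM, reached into the Ta range. The log2 fold change of Pb against Ta was -1.99 ± 0.48 (SE, edgeR's quasi-likelihood F test, adjusted p = 0.000494), which puts the fitted Pb level at 25.1% of Ta. In bulk tissue, fewer cells of a type and less RNA per cell cannot be told apart, and this holds for every fall given here. Across Pb against Ta, 29.2% of the 15868 genes tested were lower and 24.5% higher, so a call in this comparison was common. Of the 7 genes of interest that could be tested, 6 were lower and 0 higher.

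In the other metals Slc12a3 reached higher levels. In W it was 234, 687 and 962 CPM (lowest, median and highest), with W replicates 5, 7 and 8 below every Ta library. In Co it was 71.8, 742 and 1027 CPM, with Co replicates 5, 6 and 7, at 71.8, 435 and 171 CPM, below every Ta library and the other 5 between 727 and 1027 CPM. Al libraries fell apart by replicate number: Al replicates 1 to 4 had 856, 814, 631 and 720 CPM, all inside the Ta range, and Al replicates 5 to 8 had 202, 187, 382 and 260 CPM, all below it. In DU it was 46.9, 883 and 1552 CPM, and the lowest value came from DU replicate 6, the next being 676 CPM. None of these 4 differences from Ta passed the test, the nearest being Al (-1.02 ± 0.45, adjusted p = 0.0873), then Co (-0.73 ± 0.44, adjusted p = 0.219), W (-0.67 ± 0.44, adjusted p = 0.371) and DU (-0.21 ± 0.44, adjusted p = 0.803). The Al difference in Slc12a3 passed with limma voom (adjusted p = 0.0335), in a fit of Al and Ta alone (adjusted p = 0.0215) and with replicate number as a block. Adjusted p was thus lowest, at 0.0215, in the fit of Al and Ta alone, and reached 0.814 among the alternatives that keep all libraries.

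**Figure D1:**
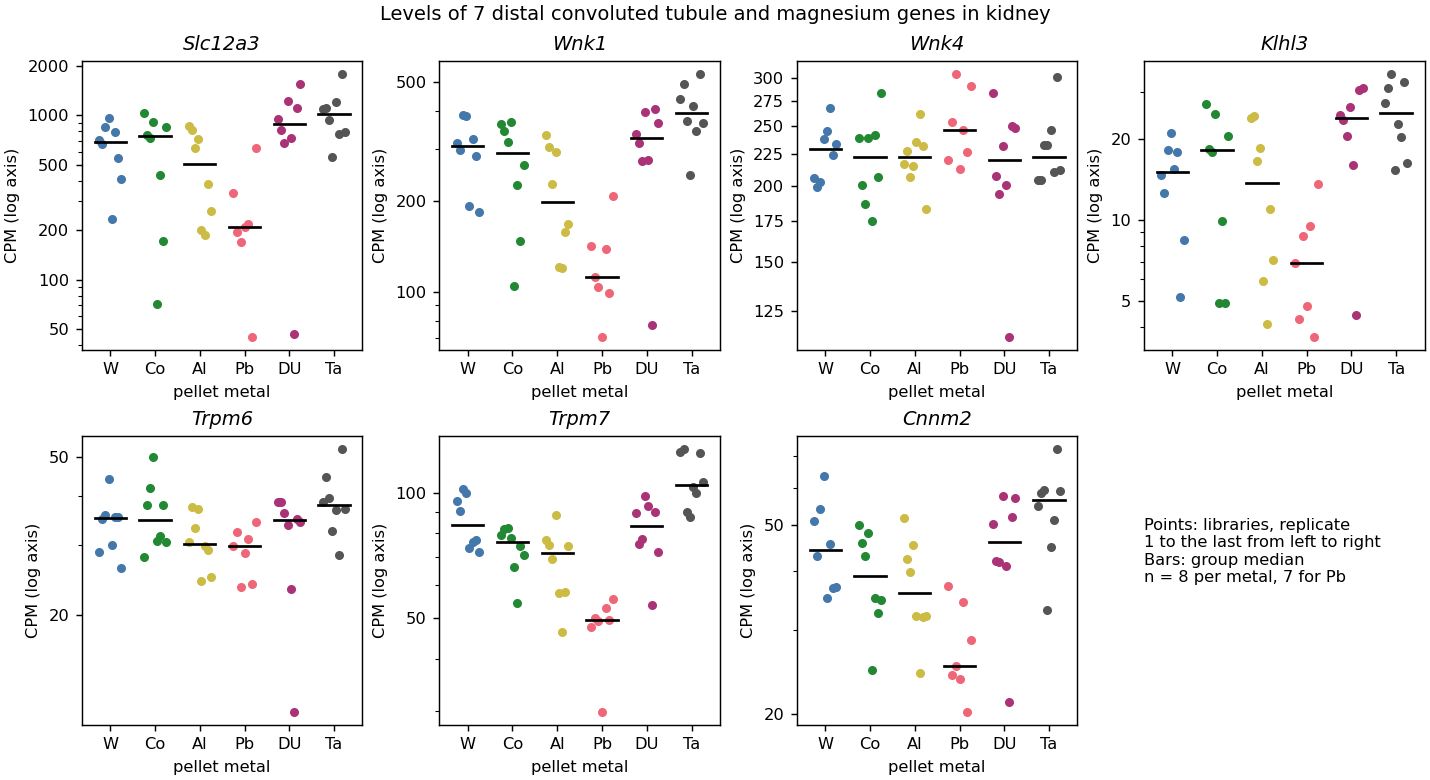
Level of the 7 tested genes in each library, in CPM on log axes, for the 5 metals and then Ta; points are libraries in order of replicate number and bars are group medians. Slc12a3, Wnk1 and Klhl3 were low in Pb and in Al replicates 5 to 8, Trpm7 lay below every Ta library in all Pb libraries, and Wnk4 medians stayed between 220 and 246 CPM.

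WNK1 activates NCC through SPAK and OSR1, and the gene also makes a shorter kinase-deficient form in the DCT from its own promoter. The counts are per gene, so both forms are summed, and Rad52 overlaps the gene in the RefSeq table, which leaves part of the count uncertain because the strand setting is not given in the sources used here. Wnk1 had 70.8, 112 and 209 CPM (lowest, median and highest) in Pb, against 244, 395 and 532 CPM in Ta, and the groups did not overlap. Its log2 fold change was -1.68 ± 0.27 (adjusted p = 1.35e-06). In Al it fell as well, to 120, 199 and 334 CPM (lowest, median and highest), against the Ta values above (-0.89 ± 0.26, adjusted p = 0.00872), and Al replicates 3, 5, 6, 7 and 8 lay below every Ta library. In Al against Ta 12.4% of all genes were lower. The difference did not pass in Co (-0.59 ± 0.25, adjusted p = 0.0807), W (-0.44 ± 0.25, adjusted p = 0.307) or DU (-0.39 ± 0.25, adjusted p = 0.324), although 8 of 8 Co and 8 of 8 W libraries were below the Ta median.

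Klhl3, which encodes the adaptor that brings WNK kinases to the ligase, followed Slc12a3 and Wnk1 in Pb kidneys. It had 3.68, 6.90 and 13.6 CPM (lowest, median and highest) in Pb, against 15.3, 24.96 and 34.9 CPM in Ta, with no overlap. The log2 fold change was -1.77 ± 0.38 (adjusted p = 0.000129). In Al it ran from 4.10 to 24.4 CPM, with replicates 5 to 8 below every Ta library, and the difference missed the threshold (-0.84 ± 0.35, adjusted p = 0.0750). It passed without Al replicate 1 (adjusted p = 0.0392) or Al replicate 2 (adjusted p = 0.0415), with limma voom and with replicate number as a block. W replicates 1, 2, 7 and 8 and Co replicates 5, 6 and 7 also lay below every Ta library, while the group differences did not pass in W (-0.82 ± 0.35, adjusted p = 0.176) or Co (-0.64 ± 0.35, adjusted p = 0.176). DU without replicate 6 ran from 16.1 to 31.0 CPM, inside the Ta range, and DU replicate 6 had 4.43 CPM.

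Wnk4, the WNK kinase whose loss lowers NCC activity in mice, did not pass edgeR's test in any comparison. Limma voom called Wnk4 higher in Pb than in Al (0.24, adjusted p = 0.0270) and than in Co (0.25, adjusted p = 0.0365). It had 213, 246 and 304 CPM (lowest, median and highest) in Pb, against 204, 222 and 301 CPM in Ta, and the groups overlapped almost fully. The log2 fold change was 0.12 ± 0.12 in Pb, where Slc12a3, Wnk1 and Klhl3 were between -1.99 and -1.68. In the other metals it was -0.02 ± 0.12 in W, -0.06 ± 0.12 in Co, -0.05 ± 0.12 in Al and -0.09 ± 0.12 in DU, all with adjusted p of 0.648 to 0.934. The standard error for Slc12a3 was 0.44 to 0.48 in the same comparisons.

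To show the start regions of these 4 genes beside their values, the 250 bases before the annotated start are given 5′ to 3′ on the strand of the gene, from RefSeq (GRCr8), for the 3 genes with the largest falls in Pb and for Wnk4. They lie at chr19:10675051-10675300 (minus strand) for Slc12a3, chr17:6528237-6528486 (plus strand) for Klhl3, chr4:154926148-154926397 (minus strand) for Wnk1 and chr10:86702708-86702957 (plus strand) for Wnk4. Capitals mark matches, on either strand, to TATAAA (the TATA box), GGGCGG (a GC box) or AGAACA (a core of steroid receptor elements), and no match overlapped a match of another motif.
Slc12a3: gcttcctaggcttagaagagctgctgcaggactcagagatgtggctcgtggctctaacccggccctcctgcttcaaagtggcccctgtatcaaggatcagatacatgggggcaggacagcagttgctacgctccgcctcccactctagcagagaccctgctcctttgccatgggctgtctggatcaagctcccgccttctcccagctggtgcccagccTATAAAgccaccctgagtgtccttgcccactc
Klhl3: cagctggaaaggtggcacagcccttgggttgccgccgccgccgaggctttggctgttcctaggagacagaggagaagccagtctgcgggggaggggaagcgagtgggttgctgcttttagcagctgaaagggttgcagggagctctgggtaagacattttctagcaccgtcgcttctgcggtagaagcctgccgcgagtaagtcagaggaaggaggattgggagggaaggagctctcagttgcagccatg
Wnk1: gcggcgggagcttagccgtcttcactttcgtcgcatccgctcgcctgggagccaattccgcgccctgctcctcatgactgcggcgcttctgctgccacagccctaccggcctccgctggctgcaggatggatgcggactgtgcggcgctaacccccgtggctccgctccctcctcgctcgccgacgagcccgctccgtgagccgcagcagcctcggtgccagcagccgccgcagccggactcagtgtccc
Wnk4: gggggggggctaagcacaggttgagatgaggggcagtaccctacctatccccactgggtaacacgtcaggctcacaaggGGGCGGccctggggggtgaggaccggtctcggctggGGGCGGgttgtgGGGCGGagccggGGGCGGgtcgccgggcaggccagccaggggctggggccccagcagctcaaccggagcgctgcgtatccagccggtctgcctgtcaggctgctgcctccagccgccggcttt
Slc12a3 held TATAAA, which 12.9% of 33469 windows of this length hold, and Wnk4 held 4 matches of GGGCGG, which 30.5% of windows hold. AGAACA, found in 17.5% of windows, is not in these 4 windows. The windows of Wnk1 and Klhl3 held none of the 3 motifs. Which of the Wnk1 forms starts at the window shown was not tested. GC content was 59.2% for Slc12a3, 59.6% for Klhl3, 70.8% for Wnk1 and 72.0% for Wnk4, against a median of 51.2% over all windows. These matches describe the letters only.

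Trpm7 fell in more metal groups than any other gene of the set. The gene encodes a channel fused to a kinase that carries magnesium in nearly all cells and can join TRPM6 in mixed channels. It had 29.9, 49.6 and 55.6 CPM (lowest, median and highest) in Pb, against 87.6, 105 and 127.04 CPM in Ta, and in 7 of 7 Pb libraries it lay below every Ta library. The log2 fold change was -1.17 ± 0.13 (adjusted p = 2.67e-10). Co libraries ran from 54.6 to 82.2 CPM, 8 of 8 below every Ta library (-0.55 ± 0.12, adjusted p = 0.00101). Al libraries ran from 46.3 to 88.5 CPM, 7 of 8 below every Ta library (-0.66 ± 0.12, adjusted p = 7.39e-05). The background of lower genes was 12.2% in Co. DU libraries ran from 53.8 to 98.02 CPM, 4 of 8 below every Ta library (-0.41 ± 0.12, adjusted p = 0.0154), where 7.39% of all genes were lower. The DU call was lost without DU replicate 6 (-0.31, adjusted p = 0.0708), and also without Ta replicate 1 (adjusted p = 0.0602) or Ta replicate 2 (adjusted p = 0.0647). In W, Trpm7 ran from 72.2 to 102.2 CPM and did not pass (-0.33 ± 0.12, adjusted p = 0.113).

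Trpm6, the magnesium channel of the DCT and colon, moved less than Slc12a3 in the same libraries. It had 23.6, 29.9 and 34.4 CPM (lowest, median and highest) in Pb, against 28.3, 37.9 and 52.4 CPM in Ta. Only 2 of 7 Pb libraries lay below every Ta library. The log2 fold change was -0.41 ± 0.16 (adjusted p = 0.0279), and the call was lost without Pb replicate 3, Pb replicate 6, Ta replicate 2 or Ta replicate 7, with an adjusted p of up to 0.0767. In W, Co, Al and DU it did not pass, with log2 fold changes of -0.19 ± 0.15, -0.10 ± 0.15, -0.33 ± 0.15 and -0.30 ± 0.15 and adjusted p of 0.465, 0.652, 0.112 and 0.186, although limma voom called Trpm6 in Al (-0.29, adjusted p = 0.0487). Set within each library, the CPM of Slc12a3 over that of Trpm6 was 1.89, 7.22 and 18.3 (lowest, median and highest) in Pb, against 16.9, 25.9 and 33.8 in Ta, so the groups overlapped in a narrow stretch. The same ratio to Wnk4 was 0.200, 0.890 and 2.17 in Pb, against 2.38, 4.44 and 5.89 in Ta, with no overlap.

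**Figure D2:**
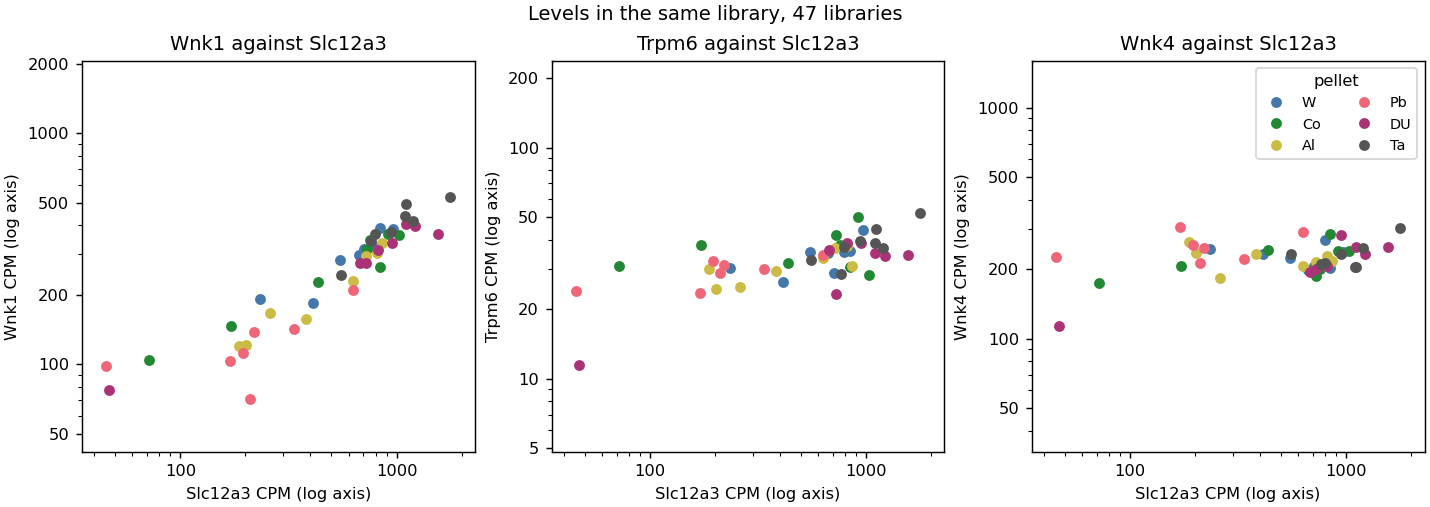
Level of Wnk1, Trpm6 and Wnk4 against that of Slc12a3 in the same library, in CPM on log axes, 47 libraries coloured by metal. Wnk1 was low where Slc12a3 was low, while Wnk4 lay between 113 and 304 CPM over the whole Slc12a3 range of 45.3 to 1772 CPM.

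Cnnm2, a magnesium transport protein of the basolateral side whose human variants cause low blood magnesium, fell in Pb, Al and Co. It had 20.2, 25.2 and 37.2 CPM (lowest, median and highest) in Pb, against 33.2, 56.7 and 72.4 CPM in Ta, with 5 of 7 Pb libraries below every Ta library. The log2 fold change was -0.97 ± 0.18 in Pb (adjusted p = 9.41e-06), -0.53 ± 0.17 in Al (adjusted p = 0.0177) and -0.46 ± 0.17 in Co (adjusted p = 0.0376). The Co call was lost without any of 10 libraries (Co replicates 5 to 8 and Ta replicates 1, 2, 3, 6, 7 and 8), with an adjusted p of up to 0.109, and the Al call without Al replicate 6 (adjusted p = 0.0538). Neither W (-0.24 ± 0.17, adjusted p = 0.398) nor DU (-0.25 ± 0.17, adjusted p = 0.330) passed.

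Pvalb, the calcium-binding protein parvalbumin that marks the early DCT in mice, had almost no counted reads. It had 12 reads in all 47 libraries together, 5 in Co replicate 4, 5 in DU replicate 2 and 2 in Al replicate 7, and 0 in the other 44. A count of 0 allows a level of up to 0.0839 to 0.139 CPM, taken as 3 counts of the library total, for counting error only. The gene did not pass the filter on low counts and was not tested, although Slc12a3 was present in 47 of 47 libraries. Whether the annotation or the counting missed its reads was not tested. Pvalb is also made in fast skeletal muscle, and 7 muscle markers had medians between 0 CPM for Myh4 and 7.23 CPM for Mylpf.

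**Figure D3:**
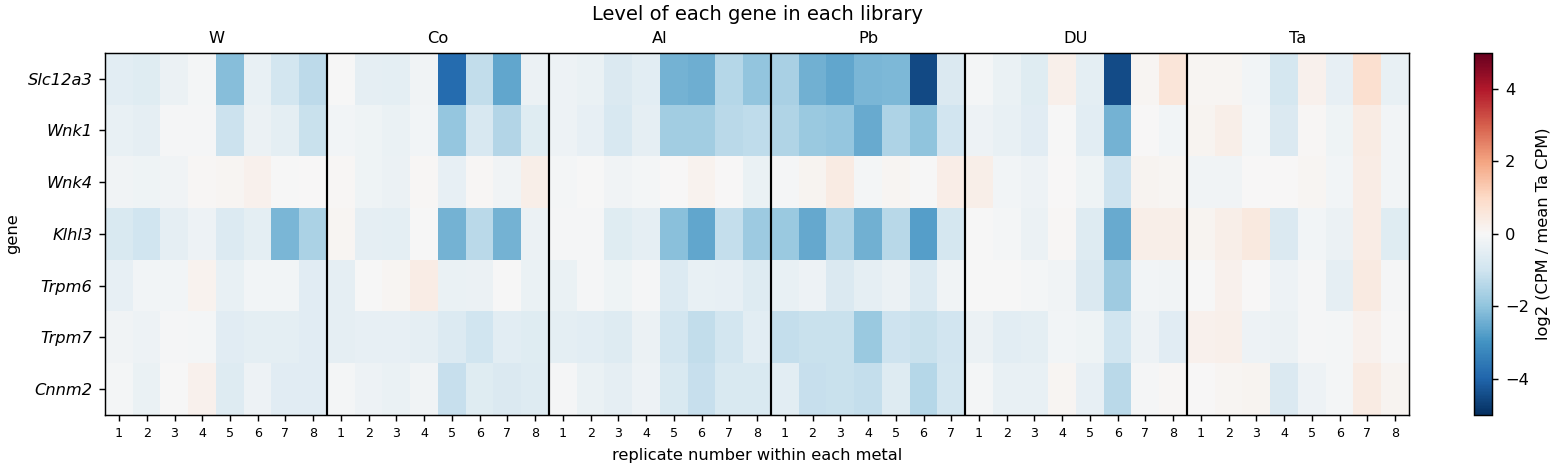
Level of each tested gene in each library as log2 of its CPM over the mean Ta CPM, with libraries ordered by metal and replicate number. Blue marks levels below Ta: Pb replicates 1 to 6, Al replicates 5 to 8, Co replicates 5 to 7 and DU replicate 6 stand out for Slc12a3, Wnk1 and Klhl3, and the Wnk4 row stays pale except in DU replicate 6, at 113 CPM. W replicates 5, 7 and 8 also lay below every Ta library for Slc12a3, and W replicates 1, 2, 7 and 8 for Klhl3.

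The tests of all metals together used the same fit. Among the 6 metals 5 of 7 genes differed, namely Trpm7 (adjusted p = 1.51e-08), Wnk1 (5.28e-05), Cnnm2 (0.000272), Klhl3 (0.00203) and Slc12a3 (0.00799), where 58.4% of all genes differed. Among the 5 metals without Ta these 5 also differed, with adjusted p of 9.21e-06 for Trpm7 to 0.0252 for Slc12a3, where 53.2% of all genes differed. Ordered by mean level, Pb was the lowest group for Slc12a3, Wnk1, Klhl3, Trpm7, Cnnm2 and Trpm6 and the highest for Wnk4. Al came next above Pb for these 6 genes. Of 35 steps between neighbours in the 7 orders 2 passed, those of Pb below Al for Trpm7 (-0.51 ± 0.13, adjusted p = 0.00411) and for Wnk1 (-0.79 ± 0.27, adjusted p = 0.0314). Ta was the highest group for these 6 genes, and DU was its neighbour for Slc12a3, Wnk1 and Klhl3.

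Pb was also lower than the other metals, which does not rest on the Ta libraries. Slc12a3, Wnk1, Klhl3, Trpm7 and Cnnm2, 5 of 7, were lower in Pb than in DU (25.9% of all genes lower), than in W (21.5%) and than in Co (14.5%). For Slc12a3 the log2 fold change was -1.78 ± 0.48 against DU (adjusted p = 0.00191), -1.32 ± 0.47 against W (adjusted p = 0.0220) and -1.26 ± 0.47 against Co (adjusted p = 0.0417). Against Al 2 of 7 were lower in Pb, Trpm7 and Wnk1, with 11.1% of all genes lower. These counts moved when 1 library was left out. They were 1 to 4 against Al: 1 without Al replicate 1, 2 or 4 or Pb replicate 2, 3, 4 or 6, and 4 without Al replicate 6 or Pb replicate 7. Against Co they were 2 to 5, with 2 or 3 without Co replicate 1, 2 or 4 or Pb replicate 4 or 6. Against W they were 3 to 5, with 3 without Pb replicate 6, and against DU 5 throughout. In W against Ta, where 0.366% of all genes were lower, 0 of 7 passed edgeR's test, with 2 (Trpm7 and Klhl3) below an unadjusted p of 0.05, and DESeq2 and limma voom called 0 as well.

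**Figure D4:**
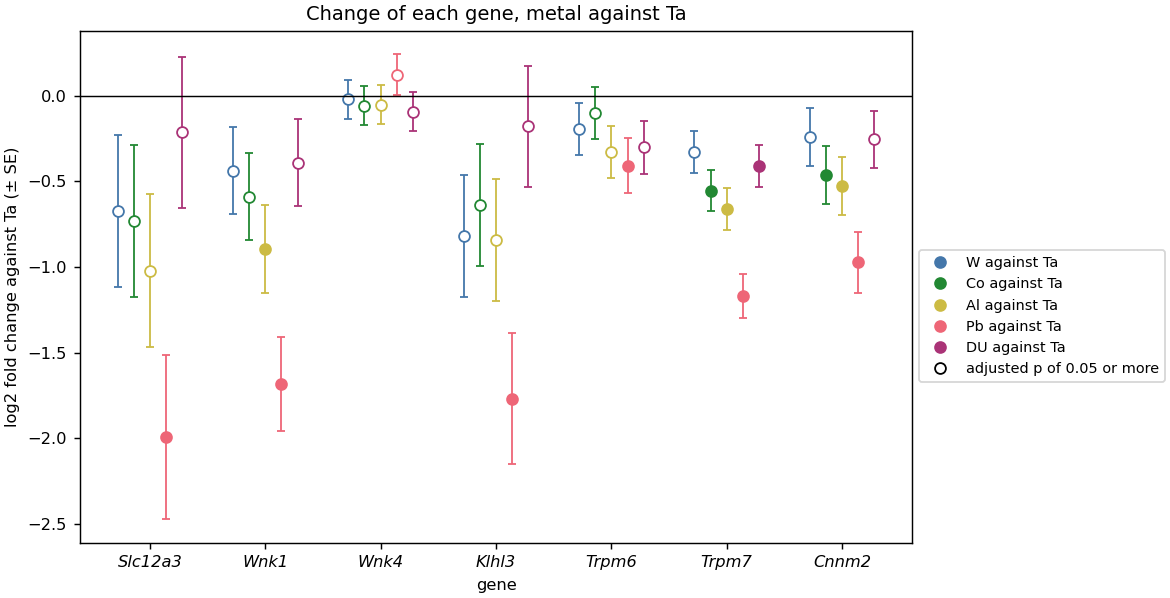
Log2 fold change of each metal against Ta with its standard error for the 7 tested genes, filled where the adjusted p was below 0.05. In Pb 6 genes were lower, from -0.41 for Trpm6 to -1.99 for Slc12a3, in Al 3, in Co 2, in DU 1 and in W 0, and the 5 values of Wnk4 lay between -0.09 and 0.12.

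The median log2 fold change over the 7 tested genes was -1.17 in Pb, -0.66 in Al, -0.55 in Co, -0.33 in W and -0.25 in DU, and over all genes it lay between -0.07 and -0.01. Markers of some other kidney cells also fell. In Pb 29.2% of all genes were lower and 24.5% higher, which is the share to set beside the counts of each list. In Pb 7 of 8 endothelial markers fell, and their mean log2 CPM was 2.36 to 3.37 in Pb, against 4.53 to 5.06 in Ta. Podocyte markers fell in 6 of 6 (2.00 to 3.36 in Pb, against 4.53 to 5.69 in Ta) and proximal tubule markers in 6 of 8 (6.45 to 7.60 in Pb, against 8.31 to 8.80 in Ta). Thick ascending limb markers, of the segment just before the DCT, fell in 3 of 6 and rose in 1, and their mean overlapped (7.31 to 7.97 in Pb, against 7.21 to 8.24 in Ta). Principal cell markers, of the segment after it, fell in 1 of 7 and rose in 3 (5.67 to 6.48 in Pb, against 5.58 to 6.08 in Ta), and intercalated cell markers rose in 3 of 6. Smooth muscle and fibroblast markers fell in 7 of 7 and immune cell markers in 3 of 7. In Al podocyte markers fell in 6 of 6, endothelial markers in 5 of 8, smooth muscle and fibroblast markers in 5 of 7 and proximal tubule markers in 3 of 8. In Co smooth muscle and fibroblast markers fell in 7 of 7, endothelial and podocyte markers in 1 each and proximal tubule markers in 0 of 8. In W 2 of 7 smooth muscle and fibroblast markers fell. In DU none of these 4 lists had a member that fell, and 1 of 8 endothelial markers rose. The shares of all genes lower were 12.4% in Al, 12.2% in Co, 0.366% in W and 7.39% in DU, and 7.89% were higher in DU. No gene of these lists was at 0 in all libraries. With the mean of the endothelial markers as a covariate 2 of 7 genes passed in Pb against Ta, Trpm7 and Wnk1. Over all genes 3535 of 15868 passed in that fit, against 8517 without a covariate. With the means of proximal tubule and principal cell markers 4 passed, without Slc12a3 (-0.83, adjusted p = 0.0885) and Trpm6 (-0.22, adjusted p = 0.214). Of all genes 6083 passed in this second fit. Pb and Ta libraries did not overlap in the endothelial or the proximal tubule mean. These means and the metal therefore cannot be told apart in Pb against Ta.

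The mean balance of ribosomal and very large protein genes was 3.41 in Pb and 2.63 in Al, the metals with the largest median falls. It was 2.49 in DU, 2.47 in Co and 2.03 in W, where the median log2 fold changes were -0.25, -0.55 and -0.33. Pb, Al, Co and W held the same order by both values, and DU did not. Whether the balance bears on the falls was not tested. With it as a covariate 0 of 7 genes passed edgeR's test in any metal against Ta, with 0 below an unadjusted p of 0.05, and the log2 fold change of Slc12a3 in Pb was -0.59 (adjusted p = 0.709), of Wnk1 -0.08 (adjusted p = 0.928) and of Trpm7 -0.20 (adjusted p = 0.427). As Co, Al, Pb and DU libraries did not overlap Ta in this balance, it and the metal cannot be told apart in those comparisons. The same holds for Pb, at 2.97 or more, against W (up to 2.44) and Co (up to 2.90).

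Other genes of the same pathways were read from 3 lists with 42 tested genes. In Pb 20 of 42 were lower and 6 higher, in Co 6 and 3, in Al 8 and 1, in DU 2 and 0, and in W 0 and 0, where the shares of all genes lower and higher were 29.2% and 24.5% in Pb, 12.2% and 13.6% in Co, 12.4% and 12.8% in Al, 7.39% and 7.89% in DU and 0.366% and 1.42% in W. In W 6 were below an unadjusted p of 0.05 by edgeR and 2 called by DESeq2 and 0 by limma voom. Of 16 genes for NCC regulation and chloride and potassium handling, 6 fell and 1 rose in Pb (median -0.24). Cab39, an adaptor that activates SPAK and OSR1, fell (-0.71 ± 0.08, adjusted p = 2.85e-10), to 40.0 ± 2.96 CPM in Pb, against 65.3 ± 4.25 CPM in Ta (mean ± SD, n = 7 and 8). It also fell in Al (-0.41 ± 0.07), Co (-0.26 ± 0.07) and DU (-0.33 ± 0.07), with adjusted p of 5.92e-05, 0.00942 and 0.00144. Nr3c2, the mineralocorticoid receptor, was 5.99 ± 1.73 CPM in Pb, against 20.5 ± 2.85 CPM in Ta (-1.77 ± 0.24, adjusted p = 3.98e-08), and fell in Al (-0.83 ± 0.22) and Co (-0.74 ± 0.22). Oxsr1, the gene of OSR1, fell in Pb (-0.97 ± 0.15), Al (-0.48 ± 0.14) and Co (-0.45 ± 0.14). Ppp1r1a, an inhibitor of protein phosphatase 1 made in the DCT, rose in Pb (0.77 ± 0.31, adjusted p = 0.0352). Chosen after their values were seen, Kcnj10, the basolateral potassium channel of the DCT, fell in Pb (-2.67 ± 0.52, adjusted p = 2.95e-05), as did Stk39, the gene of SPAK (-0.49 ± 0.16, adjusted p = 0.0108).

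Among 19 tested genes of magnesium handling 10 fell and 4 rose in Pb (median -0.40). Of all genes 29.2% were lower and 24.5% higher in Pb. The falls with the smallest p were those of Magt1, a protein linked to magnesium uptake (-1.37 ± 0.18), Cnnm4, a relative of Cnnm2 (-1.10 ± 0.17), and Arl15, a small GTPase that binds CNNM proteins (-1.13 ± 0.21), with adjusted p of 1.22e-08, 4.71e-07 and 1.02e-05. Magt1 and Cnnm4 fell in Co (-0.67 ± 0.17 and -0.61 ± 0.16) and Al (-0.48 ± 0.17 and -0.47 ± 0.16) too, and Arl15 fell in Al (-0.61 ± 0.19). Fxyd2, the gamma subunit of the sodium pump, rose in Pb (0.99 ± 0.20), Al (0.74 ± 0.19) and Co (0.57 ± 0.19), to 1921 ± 202 CPM in Pb, against 970 ± 212 CPM in Ta. Ptp4a2, a phosphatase that binds CNNM proteins, rose in Pb (0.25 ± 0.07) and Co (0.24 ± 0.07), and Cldn19, a tight junction protein of the thick ascending limb, rose in Pb (0.52 ± 0.16).

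Of 7 calcium handling genes of the late DCT and connecting tubule 4 fell and 1 rose in Pb (median -0.90). The shares of all genes in Pb were 29.2% lower and 24.5% higher. The calcium pump genes Atp2b1 (-0.82 ± 0.10, adjusted p = 2.95e-09) and Atp2b4 (-2.40 ± 0.40, adjusted p = 2.46e-06) and the sodium-calcium exchanger gene Slc8a1 (-2.18 ± 0.39, adjusted p = 7.35e-06) had the smallest p. Atp2b1 fell in Al (-0.42 ± 0.09) and Co (-0.25 ± 0.09), and Atp2b4 in Al (-1.05 ± 0.36). S100g, the small calcium buffer calbindin-D9k, rose in Co (1.21 ± 0.31, adjusted p = 0.00450) and Pb (1.00 ± 0.32, adjusted p = 0.00743) from a low level, at 4.48 ± 1.59 CPM in Co and 3.89 ± 1.90 CPM in Pb, against 1.94 ± 0.75 CPM in Ta.

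**Figure D5:**
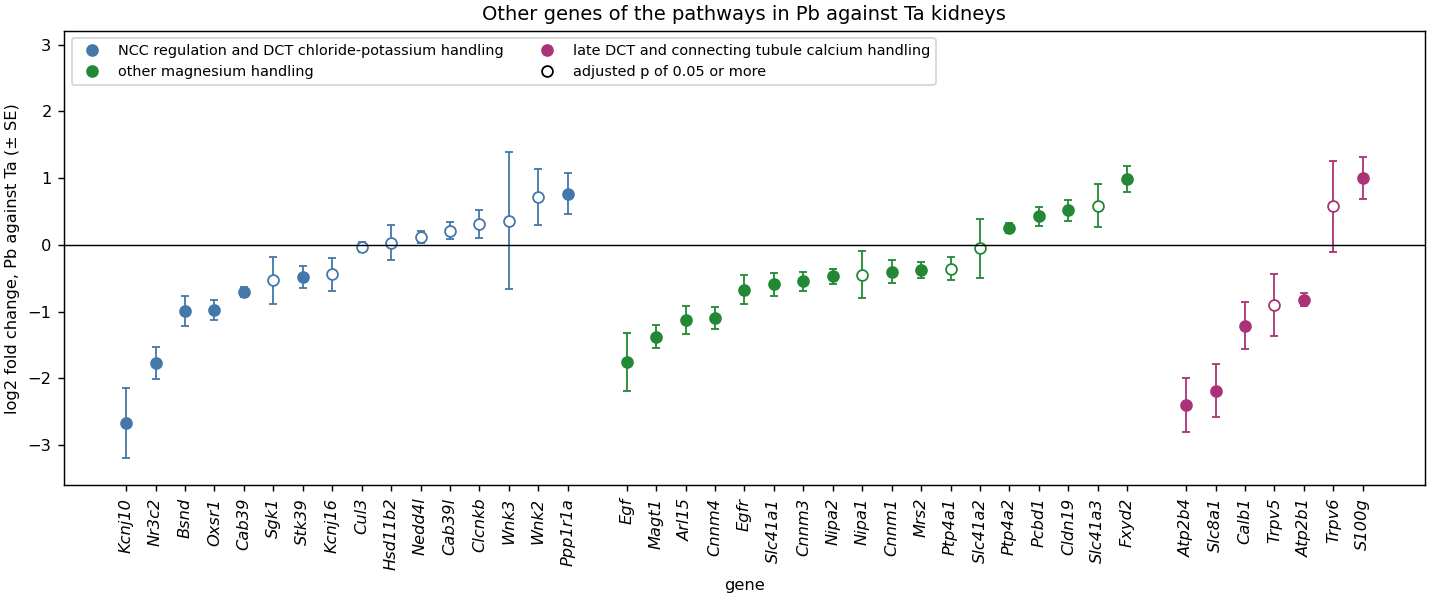
Log2 fold change of Pb against Ta with its standard error for 41 genes of the 3 lists, in order of change within each list, filled where the adjusted p was below 0.05. Falls reach -2.67 for Kcnj10 and rises 1.00 for S100g and 0.99 for Fxyd2.

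The genes most like Slc12a3 were found by Pearson's r of log2 CPM over the 47 libraries, among 13532 other genes with a mean of at least 1 CPM, as a description that includes the differences between groups. They were Tmem52b (0.95), Kl (0.94), P3h2 (0.93), Prps2 (0.93) and Wnk1 (0.93). For Wnk1 they were Slit2 (0.95), Kl (0.95), Prps2 (0.95), Acsl1 (0.94) and Cnnm2 (0.93). For Trpm6 the values were lower, at 0.81 for Atp6v0a4 and Fam81a and 0.80 for Tmem116, Mavs and Hpcal1. Kl encodes the FGF23 co-receptor klotho, and Atp6v0a4 a proton pump subunit of intercalated cells. Pvalb, at 0 in 44 libraries, was not compared in this way.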

How the data were processed

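RNA of 47 rat kidneys was extracted with TRIzol and treated with DNase, per the labels' protocols. The values deposited by the authors are raw counts per gene. Per the submitters' processing notes, reads were aligned with STAR 2.7.2a to mRatBN7.2 and counted with featureCounts of Subread 1.6.4, and the annotation, strand setting and handling of multi-mapping reads are not given in the sources used here. Of 22554 lines 29 broken by long annotation fields, with no usable gene name or value, were left out (at most 0.0558% of counts). Depth was 21604755 to 35775818 counts per library. Depth bounds counting error, while the spread among animals enters each test.

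Comparisons of a metal with Ta, of Pb with the other metals and of all metals came from a joint model of the 6 groups in edgeR 4.0.16 (R 4.3.3). The filterByExpr function left 15868 genes, TMM gave the scaling, and quasi-likelihood F tests gave p-values, adjusted by Benjamini-Hochberg over these genes and read at 0.05. A standard error is the log2 fold change divided by the root of F. The edgeR fit of Pb against Ta, without the filter on low counts, was first tested on simulated counts with set changes. The other steps had no such test. Alternatives were DESeq2 1.42.0, limma 3.58.1 (voom with quality weights), other scalings and filters, the replicate block, fits of only the groups compared, covariates of cell make-up and of the small against large protein balance, and fits without each library. Lists scored by mean log2 CPM used a prior count of 2. All 8 genes are named throughout, and per metal and list up to 3 other genes per direction with the smallest p. The 8 genes, lists and settings were chosen with earlier results of these data known. No pair of libraries in a group agreed within sampling noise (161 pairs, chi-square over degrees of freedom at least 15.7). Promoter windows came from RefSeq (GRCr8), where 8 of 8 symbols matched. Of the 42 tested pathway genes 1 is counted but not reported here by name.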

Additional observations from a re-analysis of the deposited data

Results flagged for a closer look

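In 4 of 42 sets of 7 or 8 libraries, the extreme library lay apart from the rest by a gap larger than the 95% critical share of the range. Chance gives about 1 such set in 20. Trpm7 in Pb replicate 4 was 29.9 CPM, the next Pb library having 47.8 CPM. In DU replicate 6 Cnnm2 was 21.2 CPM, the next DU library having 41.0 CPM, and Wnk1 was 77.4 CPM, the next having 273 CPM. Wnk4 in Ta replicate 7 was 301 CPM, the next Ta library having 247 CPM.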

How the results depend on the processing

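Of 12 called fold changes against Ta, 10 kept their sign in every alternative. With the small against large protein balance as a covariate, Trpm6 in Pb became 0.12 and Trpm7 in DU 0.062, and the genes that had not passed became 0.14 for Trpm6, Wnk1 and Klhl3 in Co, 0.068 for Klhl3 in Al, and 0.42 for Slc12a3, 0.14 for Cnnm2, 0.36 for Wnk1 and 0.65 for Klhl3 in DU. Other signs that turned were of values that had not passed: Wnk4 in W (limma 0.018, strict filter 0.0058, without DU replicates 5 and 6 0.0084), in Pb (endothelial covariate -0.024) and in DU (limma 0.034), Klhl3 in DU (limma 0.063), Trpm6 in Co (tubule marker covariates 0.0049), and, without DU replicates 5 and 6, in DU Slc12a3 0.068, Wnk4 0.067 and Klhl3 0.092.

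The number of the 7 genes called was 0 with the balance covariate in Co, Al, Pb and DU against Ta, in both tests of any difference and in Pb against Al, Co and W, and 1 in Pb against DU. Calls over all 15868 genes fell too, as in Pb against Ta to 644 from 8517 and in Pb against DU to 4459 from 7867. With the endothelial covariate the number of the 7 genes was 0 in Co, 1 in Al, 2 in Pb, 1 in both tests of any difference, and 0, 1, 0 and 2 in Pb against Al, Co, DU and W. Over all genes the calls were 534 in Co, 866 in Al and 3535 in Pb, from 4089, 3996 and 8517. In the tests of any difference they were 4132 and 3428, from 9260 and 8436. In Pb against Al, Co, DU and W they were 689, 1906, 100 and 3511, from 3024, 4100, 7867 and 6186. With the tubule marker covariates the number of the 7 genes was 1 in Co, 1 in Al, 3 and 2 in the tests over 6 and 5 metals, and 1, 2 and 3 in Pb against Al, Co and W. Calls over all genes were then 2342 in Co, 1600 in Al, and 6882 and 6248 over 6 and 5 metals. They were 2773, 3317 and 4917 in Pb against Al, Co and W. Limma gave 1 in Co, 6 in Al, 6 in Pb against Al and 7 in Pb against Co, and the strict filter 1 in Co. Limma called 3108 of all genes in Co, 5719 in Al, 5387 in Pb against Al and 5611 in Pb against Co. The strict filter called 4116 of 14338 genes in Co. The replicate block gave 5 in Al, adding Slc12a3 (adjusted p = 0.0367) and Klhl3 (adjusted p = 0.0331), and 3 in Co, adding Wnk1 (adjusted p = 0.0480). That fit called 4138 of all genes in Al and 4288 in Co. No label says that the shared replicate numbers pair animals, and over 115 same-numbered pairs of libraries the correlation of deviations from the group means ran from -0.353 to 0.360 (median 0.0116). Slc12a3 below every Ta library fell on replicates 5 to 8 in Al, 5 to 7 in Co and 5, 7 and 8 in W. Without DU replicates 5 and 6, a choice made after seeing the data, the number of the 7 genes was 0 in DU and 4 in Pb against Al. Of 15951 genes 1801 and 3560 were called there. The cause of these shifts was not tested.

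Of the 42 pathway genes, the balance covariate left 0 called in Co, 2 in Al and 3 in Pb, the endothelial covariate 1, 1 and 13, and the tubule marker covariates 4 in Al and 6 in DU. DESeq2 gave 2 in W and 4 in DU, limma 16 in Al and 10 in DU, the strict filter 1 in W, fits of only the groups compared 3 in W and 14 in Al, and the replicate block 4 in DU. Over all genes DESeq2 called 764 in W and 2589 in DU, and limma 5719 in Al and 4548 in DU. The strict filter called 562 in W and the replicate block 2387 in DU. Fits of only the groups compared called 277 in W and 4701 in Al. The main fit called 283 in W, 3996 in Al and 2424 in DU. Without Ta replicates 4 and 6 it was 5 in Al and 4 in DU, and without DU replicates 5 and 6 it was 3 in W and 5 in DU. Calls over all genes were 3158 and 2853 without those Ta libraries, and 1121 and 1801 without those DU libraries.

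Leaving out each library in turn gave 0 to 0 of the 7 genes in W, 1 to 2 in Co, 2 to 4 in Al, 5 to 6 in Pb and 0 to 1 in DU, 5 to 5 over 6 metals and 4 to 5 over 5, and in Pb 1 to 4 against Al, 2 to 5 against Co, 5 to 5 against DU and 3 to 5 against W. The pathway counts were 0 to 2 in W, 7 to 11 in Co, 6 to 10 in Al, 24 to 27 in Pb and 2 to 5 in DU, where 2 in W came without W replicate 3, 1 without W replicate 2 or Ta replicate 1, 4, 5, 7 or 8, 4 in DU without DU replicate 5 or 6 and 5 without Ta replicate 4. Signs turned for Wnk4 in W (-0.050 to 0.044), Co (-0.11 to 0.0071), Al (-0.084 to 0.013) and DU (-0.14 to 0.033), Slc12a3 in DU (-0.36 to 0.00011) and Klhl3 in DU (-0.25 to 0.0096). For Pvalb a count of 0 allowed a level of up to 0.0839 to 0.139 CPM, for counting error only, and why its reads were so few was not tested.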
